A study of Gossypium hirsutum with 9 samples.

Results

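The genes described here are 199 of 75376 Gohir IDs of Gossypium hirsutum, or upland cotton, of the strain TM-1, whose transcript levels were highest in ovules cultured on 150 mM glucose and lower on both 50 and 300 mM. The RNA came from ovules kept in culture for 5 days on 50, 150 or 300 mM glucose, with 3 sequencing libraries at each concentration, and strain, tissue and culture time were the same in all 9 libraries. The files name no unit, and their values were taken as FPKM, a read count scaled to the length of the gene and the size of the library, since they behave as such in whole-number ratios within a gene. From them 17803705 to 19140279 reads per library were recovered. An ID was a member if its mean log2(FPKM + 0.5) at 150 mM exceeded the means at 50 mM and at 300 mM by at least 2.38-fold each on that scale, if its mean at 300 mM was no more than 0.5 below that at 50 mM, if its mean FPKM at 150 mM was at least 2, and if every 150 mM library stood above every other library. These measured values chose the members, so the height of the peak is a description and no test is given for it.

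Ovules of cotton grow in culture on a medium in which sugar is the carbon source, and fibres grow from single cells of the ovule surface. Glucose feeds cell wall synthesis and energy metabolism, acts as a signal in plant cells, and at high concentration also lowers the water potential of the medium. Upland cotton is an allotetraploid, and many of its genes are present as an A copy and a D copy on chromosomes of the A and D subgenomes. The files pair the IDs with no names or descriptions, so the members are given by ID, by the chromosome the ID names, and by coding length. The samples include no osmotic control, so effects of glucose and of osmolarity cannot be told apart. The RNA is of whole ovules, and a smaller number of cells of some type and less transcript per cell cannot be told apart in it.

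Replicate 1 at 300 mM lay about as close to the 150 mM libraries as to its own group: across tested genes, Pearson's r of its log2 levels was 0.945 to 0.953 with the other 300 mM libraries and 0.929 to 0.958 with those at 150 mM. Without this library 155 of the 199 members still met the rule. The criteria narrowed the IDs stepwise. A mean FPKM of at least 2 at 150 mM was reached by 40810 Gohir IDs, of which 2155 exceeded 50 mM by the required step. Of those, 302 also exceeded 300 mM by that step, 217 kept a level at 300 mM above the lower bound, and 199 had all 3 libraries at 150 mM above all 6 others. A further 81 IDs met the steps and the separation but were below the bound at 300 mM. The mirror image, with the lowest level at 150 mM by the same steps and separation, held 74 IDs. It had no bound on the difference between 300 and 50 mM, so its count stands beside the 199 and the 81 together. Its minimum of 2 was set on the mean FPKM of the 6 libraries at 50 and 300 mM.

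**Figure D1:**
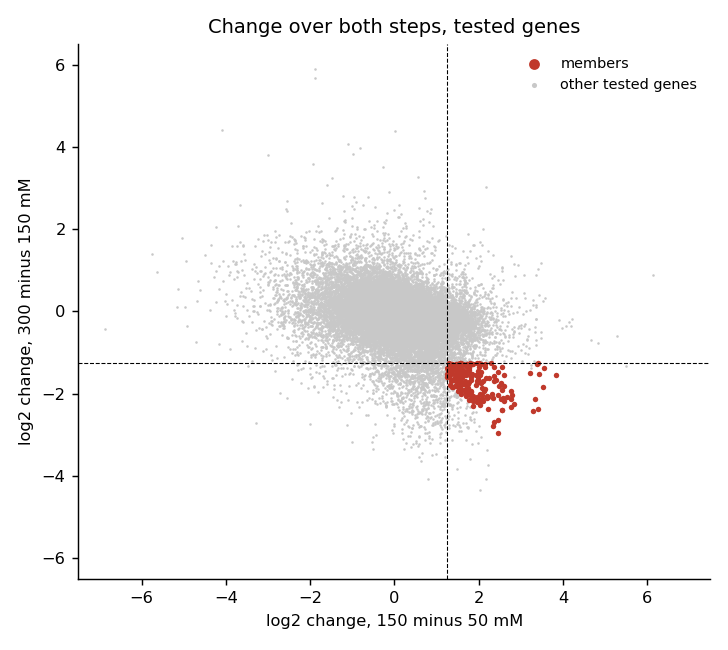
Log2 change from 50 to 150 mM (x axis, 150 minus 50) against that from 150 to 300 mM (y axis, 300 minus 150), on the log2(FPKM + 0.5) scale; each point is 1 tested gene, members in red, and dashed lines mark the required step of 2.38-fold. The members fill the lower right corner by construction, with first steps of 1.2504 to 3.83 and second steps of -2.95 to -1.2505.

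Over the members, the median log2 change was 1.74 for 150 against 50 mM, -1.66 for 300 against 150 mM and 0.06 for 300 against 50 mM. Over the 50988 genes tested, which reached 1 FPKM in 3 or more libraries, the same medians were 0.02, -0.00455 and 0.01. Of the members, 197 passed that filter on low values. In a limma fit of all 9 libraries, 191 of them passed as higher at 150 than at 50 mM (Benjamini-Hochberg adjusted p under 0.05), where 16.0% of all tested genes did, and 153 passed as lower at 300 than at 150 mM, where 4.80% did. The same 153 members passed both steps, against 1.91% of tested genes. The rule used these contrasts, so nothing is read from the counts. The count for the second step moved when a library was left out. It was 74, 82 and 92 of 189 tested members without replicates 1, 2 and 3 at 150 mM. It was 77 and 89 without replicates 2 and 3 at 300 mM, and 176 without replicate 1 at 300 mM. Over all tested genes, those changed at this step in either direction moved likewise from 3113. They numbered 1689, 1736 and 2108, then 1526 and 2020, and then 4365 in the same order of settings.

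By construction the members took a larger share of all reads at 150 mM than at either other concentration. Their share was 0.247%, 0.169% and 0.286% in the 50 mM libraries, 0.783%, 0.858% and 0.715% in the 150 mM libraries, and 0.400%, 0.228% and 0.165% in the 300 mM libraries. The 150 mM libraries did not overlap with the others, which follows from the rule, and replicate 1 at 300 mM was the highest of the remaining 6. The median FPKM over the members was 3.31, 2.17 and 3.67 at 50 mM, 14.2, 17.2 and 12.9 at 150 mM, and 6.27, 3.50 and 2.65 at 300 mM.

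**Figure D2:**
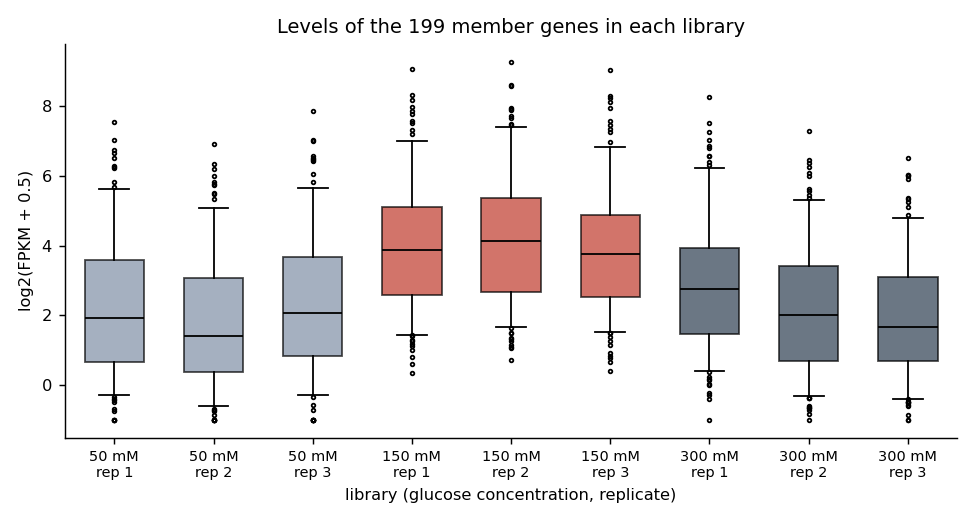
Levels of the 199 members, as log2(FPKM + 0.5), in each of the 9 libraries; boxes span the quartiles with the median as a line, whiskers reach the 5th and 95th percentile and points lie beyond them. The medians are 3.75 to 4.14 at 150 mM, and replicate 1 at 300 mM, at 2.76, sits above the other libraries at 50 and 300 mM.

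The members covered a wide range of abundance. Their mean FPKM at 150 mM ranged from 2.13 to 561.4 with a median of 15.4, where tested Gohir genes had a median of 8.29. The rule set a minimum and a peak at this concentration, which favours a higher median, so nothing is read from the difference. The members' median was 3.17 for the mean FPKM at 50 mM and 4.44 for that at 300 mM. A mean of at least 100 was reached by 19 members, and 48 had a mean under 5. The number of reads in the 3 libraries at 150 mM together was 25 to 29540 per member, with a median of 761, and 12 members had fewer than 20 reads in at least 1 of those libraries. Of the members, 10 had 0 reads in at least 1 library at 50 mM and 4 in at least 1 library at 300 mM. The coding length was 180 to 3783 bases with a median of 993, against 1059 in tested Gohir genes.

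The peak was highest, by the smaller of the 2 steps, in Gohir.A02G137300.v2.1. Its FPKM was 17.3, 10.5 and 19.5 at 50 mM, 73.5, 87.6 and 99.8 at 150 mM, and 27.3, 16.4 and 5.20 at 300 mM. The 150 mM values lay far above the rest, and the 300 mM values spread on both sides of those at 50 mM. The log2 change was 2.46 for 150 against 50 mM and -2.64 for 300 against 150 mM.

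Gohir.D06G186900.v2.1 had the same first step, 2.46, and the largest second step of any member, -2.95. Its FPKM was 1.16, 2.50 and 1.18 at 50 mM, 9.70, 10.1 and 12.3 at 150 mM, and 1.81, 1.11 and 0.302 at 300 mM, where replicate 3 held 5 reads. Its level at 300 mM was also the lowest of all members relative to 50 mM, with a log2 difference of -0.4956 that lies just above the bound of the rule. Gohir.A09G021000.v2.1 kept more of its gain. Its mean FPKM was 2.45 ± 0.674 at 50 mM, 28.6 ± 8.45 at 150 mM and 4.97 ± 2.02 at 300 mM (SD, n = 3 each), and all 3 libraries at 300 mM, at 7.26, 3.45 and 4.20, stood above all 3 at 50 mM.

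Gohir.A03G185300.v2.1 and Gohir.A11G134700.v2.1 had nearly equal steps but different spreads. Gohir.A03G185300.v2.1 averaged 2.73 ± 0.951 FPKM at 50 mM, 18.1 ± 4.44 at 150 mM and 3.11 ± 1.31 at 300 mM (SD, n = 3 each). Gohir.A11G134700.v2.1 had 4.28, 0.898 and 3.68 FPKM at 50 mM, 14.6, 27.4 and 12.9 at 150 mM, and 5.53, 2.73 and 1.4999 at 300 mM. In this gene replicate 2 was lowest at 50 mM and highest at 150 mM, and replicate 1 was highest at 300 mM. Taken singly, these positions recurred in 148, 111 and 172 of the 199 members, against 35.4%, 34.5% and 35.7% of tested genes. The members that held all of them were not counted.

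In Gohir.D13G128300.v2.1 and Gohir.D08G258400.v2.1 replicate 1 at 300 mM stood well above the other libraries of its group. Gohir.D13G128300.v2.1 had 2.27, 4.02 and 4.77 FPKM at 50 mM, 21.9, 17.2 and 22.6 at 150 mM, and 13.6, 0.310 and 2.43 at 300 mM, where these were 90, 2 and 16 reads. Gohir.D08G258400.v2.1 had 1.93, 1.27 and 2.04 FPKM at 50 mM, 23.9, 20.03 and 25.1 at 150 mM, and 8.67, 1.69 and 4.17 at 300 mM. Gohir.A07G162700.v2.1 did not share that order. Its FPKM was 4.45, 1.98 and 3.90 at 50 mM, 17.5, 21.6 and 16.9 at 150 mM, and 3.45, 5.29 and 0.432 at 300 mM, where replicate 2 was the highest.

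**Figure D3:**
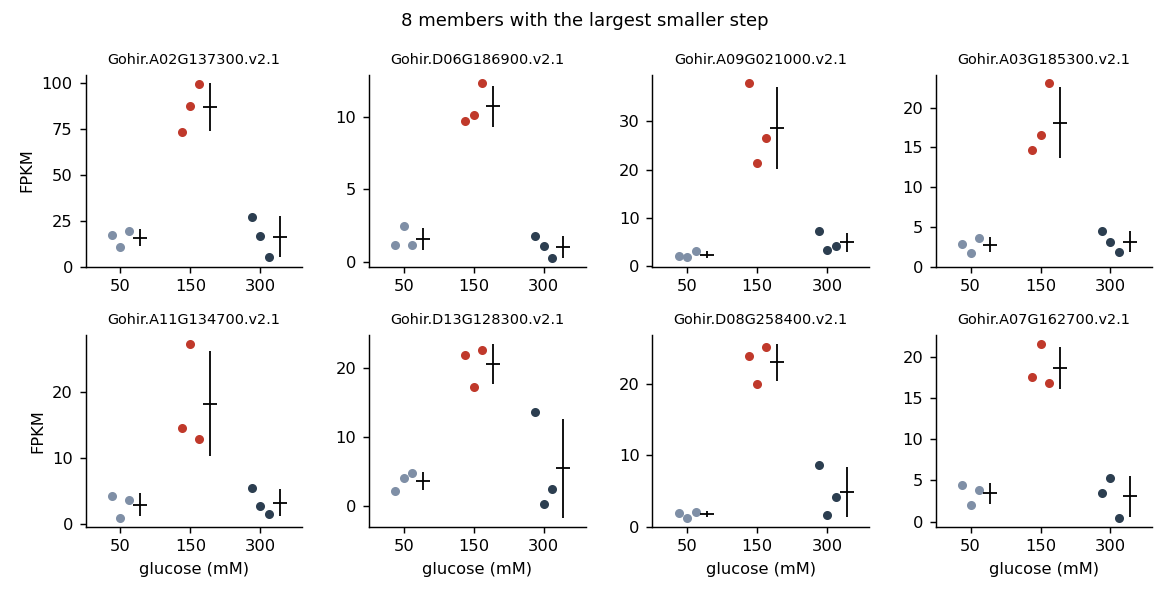
FPKM of the 8 members with the largest smaller step in each library, by glucose concentration (x axis, mM); points are replicates 1 to 3 from left to right, and the black mark and line beside them are the mean and SD (n = 3). In each panel the 150 mM points lie above all others, while at 300 mM replicate 1 is the highest point in all panels but that of Gohir.A07G162700.v2.1.

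The most abundant member was Gohir.A08G200100.v2.1. Its FPKM was 186.1, 119.9 and 231.0 at 50 mM, 536.1, 619.9 and 528.1 at 150 mM, and 309.4, 156.3 and 65.3 at 300 mM. The values at 300 mM covered a wider range than those at 50 mM and included both the highest and the lowest of these 6 libraries. Gohir.D08G217200.v2.1, the next in abundance and of the same coding length of 918 bases, had 100.1, 62.9 and 127.2 FPKM at 50 mM, 321, 388 and 303 at 150 mM, and 151.7, 86.8 and 33.9 at 300 mM. Both genes were lowest in replicate 2 at 50 mM, highest in replicate 2 at 150 mM, and highest in replicate 1 and lowest in replicate 3 at 300 mM.

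Gohir.D11G217400.v2.1 varied little at 50 and 150 mM and more at 300 mM, with a mean FPKM of 81.3 ± 5.35 at 50 mM, 248.8 ± 1.38 at 150 mM and 84.2 ± 25.6 at 300 mM (SD, n = 3 each). Gohir.A10G164900.v2.1 averaged 103.6 ± 28.5 FPKM at 50 mM, 328.7 ± 47.0 at 150 mM and 99.1 ± 27.7 at 300 mM (SD, n = 3 each). Gohir.A05G014300.v2.1 had 129.96, 54.5 and 90.2 FPKM at 50 mM, 233, 244 and 280 at 150 mM, and 182.3, 47.4 and 63.0 at 300 mM, where replicate 1 lay closer to the 150 mM libraries than to the others of its group. Gohir.D08G223600.v2.1 had 77.7, 52.8 and 86.3 FPKM at 50 mM, 219, 202 and 193 at 150 mM, and 116.3, 63.8 and 40.9 at 300 mM.

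At the edge of the rule, the members with the smallest qualifying step were Gohir.D13G019600.v2.1, whose first step was 1.2504, and Gohir.A03G141200.v2.1 and Gohir.D10G228200.v2.1, whose second steps were -1.2505 and -1.2506. Just outside were Gohir.D12G266100.v2.1, with a first step of 1.2482, and Gohir.D10G166000.v2.1 and Gohir.A05G042100.v2.1, with second steps of -1.2437 and -1.2378. The smaller step was thus nearly equal in these 6 genes, while the other step and the level differed. At 150 mM Gohir.D13G019600.v2.1 had 10.4, 13.3 and 10.9 FPKM and Gohir.D12G266100.v2.1 had 14.2, 17.0 and 11.3, which overlapped, and Gohir.D10G166000.v2.1 had 4.02, 4.19 and 5.68. With a required step of 1.0 the rule would hold 363 genes, and with 1.5 it would hold 114.

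By their group means most members lay within 0.5 on the log2 scale at 300 and 50 mM, which the rule set in part by leaving out lower genes. Single libraries at 300 mM spread more widely: replicate 1 stood above all 50 mM libraries in 142 members, and replicate 3 below all of them in 76. The shares over all tested genes are not given for these counts, so nothing particular to the members is read from them. The log2 difference of 300 minus 50 mM was between -0.5 and 0 in 85 members (42.7%), above 0 and up to 0.5 in 74 (37.2%), above 0.5 and up to the required step in 33 (16.6%) and above that step in 7 (3.52%). In the limma fit 12 members passed as higher at 300 than at 50 mM and 0 as lower, where 16.0% and 16.3% of all tested genes did. At an unadjusted p under 0.05 these counts were 22 and 1, and with limma-voom on recovered reads 11 and 0 passed. The rule bounded this contrast from below, so nothing is read from the direction. Without replicate 1 at 300 mM 7 members passed as higher and 6 as lower, without replicate 3 at 300 mM 23 passed as higher, and without replicate 1 at 50 mM 7 did.

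The members furthest above their 50 mM level at 300 mM had large first steps by construction, since the rule required a further step between 300 and 150 mM. Gohir.A05G305000.v2.1 had 0.872, 0.495 and 0.823 FPKM at 50 mM, 13.9, 17.6 and 19.2 at 150 mM, and 13.6, 2.80 and 3.91 at 300 mM. Its log2 change was 3.83 for 150 against 50 mM, the largest first step of any member, and 2.28 for 300 against 50 mM. The 50 mM values rest on 14, 8 and 13 reads, and replicate 1 at 300 mM was close to the lowest 150 mM library.

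The same order at 300 mM held in the next members by that measure. Gohir.A07G147900.v2.1 had 0.938, 0.645 and 0.586 FPKM at 50 mM, 11.9, 12.8 and 16.7 at 150 mM, and 10.9, 1.79 and 5.81 at 300 mM. Gohir.D06G086600.v2.1 had 3.01, 2.85 and 7.46 FPKM at 50 mM, 48.8, 44.6 and 50.1 at 150 mM, and 33.6, 13.8 and 16.1 at 300 mM. All 3 libraries at 300 mM stood above all 3 at 50 mM in each of these 3 genes. At the other end, Gohir.D03G002350.v2.1 averaged 13.2 ± 3.32 FPKM at 50 mM, 34.3 ± 4.77 at 150 mM and 9.90 ± 4.57 at 300 mM (SD, n = 3 each), and Gohir.A02G177500.v2.1 averaged 5.97 ± 2.48, 15.0 ± 1.46 and 4.32 ± 2.13 at the same concentrations. In both genes the ranges at 50 and 300 mM overlapped.

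The members largely shared an order among the libraries of a concentration. The rule named no such order, but it is read from the same values that chose the members. How far the choice favoured it was not tested. At 50 mM, 148 of 199 members (74.4%) had their lowest value in replicate 2, where 35.4% of all tested genes did. At 300 mM, 172 members (86.4%) had their highest value in replicate 1, where 35.7% of tested genes did. Their lowest was in replicate 3 in 126 (63.3%), where 35.1% of tested genes had it. At 150 mM the order was less uniform, and 111 members (55.8%) were highest in replicate 2, where 34.5% of tested genes were. The order at both 50 and 300 mM was shared by 132 members (66.3%), against 13.9% of tested genes.

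Genes that were not members had a like order. Of the 819 other genes that passed as higher at 150 mM in both steps, 71.8% were lowest in replicate 2 at 50 mM and 81.0% were highest in replicate 1 at 300 mM. These genes were called on the same libraries and contrasts, so their order is no separate evidence. How far that choice favoured it was not tested. Without replicate 1 at 300 mM the median log2 change of the members was -1.93 for 300 against 150 mM and -0.15 for 300 against 50 mM.

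**Figure D4:**
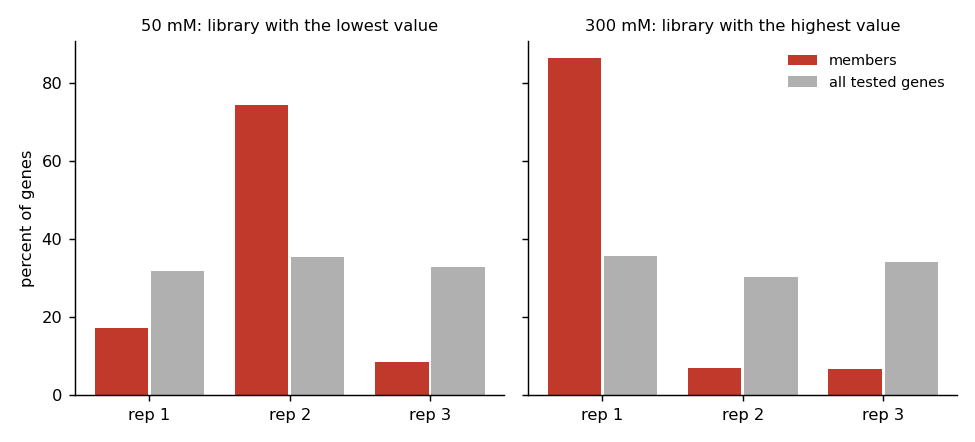
Percent of genes with their lowest value in each 50 mM library (left) and their highest value in each 300 mM library (right), for the 199 members (red) and all tested genes (grey). Replicate 2 at 50 mM holds the lowest value in 74.4% of members and replicate 1 at 300 mM the highest in 86.4%, while the libraries share tested genes about evenly.

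The size of these shifts differed between concentrations. Relative to the mean of its own group, the median member was 0.59 higher on the log2 scale in replicate 1 at 300 mM, and its deviation was -0.16 in replicate 2 and -0.40 in replicate 3. At 50 mM the medians were 0.10, -0.35 and 0.28 in replicates 1, 2 and 3, and at 150 mM they were -0.05, 0.14 and -0.11. Over all tested genes the corresponding medians lay between -0.005 and 0.0091. Set against the 50 mM mean of each gene, the median member was 0.65 higher in replicate 1 at 300 mM, with medians of -0.06 in replicate 2 and -0.28 in replicate 3. Replicates 2 and 3 at 300 mM exceeded all 3 libraries at 50 mM in 46 and 31 members. These counts too lack a share over all tested genes, and nothing particular to the members is read from them.

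The level of chosen genes was also read in a library left out of the choice. Only that library was unused: the groups it is set against were chosen as low or high by the rule, while the shares over all tested genes involve no such choice. With a 150 mM library left out, the rule on the other 8 libraries chose 223, 194 and 236 genes without replicates 1, 2 and 3. In the library left out, 92.8%, 91.8% and 92.8% of these genes stood above all 50 and 300 mM libraries, as did 16.0%, 15.3% and 16.8% of all tested genes. The median excess over the 50 mM mean was 1.62, 1.79 and 1.44 in the library left out, and 1.76, 1.79 and 1.74 in the libraries that made the choice. Both required steps were met in the library left out by 61.4%, 68.6% and 53.0% of the chosen genes.

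The low side at 50 mM held in the same way. Genes chosen without replicate 1, 2 or 3 at 50 mM numbered 226, 149 and 246, and the library left out was below all 150 mM libraries in 96.5%, 99.3% and 99.2% of them, where 37.6%, 38.8% and 37.8% of tested genes were. At 300 mM the libraries differed. Genes chosen without replicates 2 and 3 numbered 169 and 195. The library left out was below all 150 mM libraries in 98.8% and 99.5% of them, where 34.3% and 34.0% of tested genes were. The median gap below the 150 mM mean was 1.87 and 2.22. Without replicate 1 at 300 mM 274 genes were chosen, and in replicate 1 78.5% stood below all 150 mM libraries, where 31.4% of tested genes did. The median gap there was 0.73, against 1.60 in the libraries that made the choice, and 22.3% of the genes had a gap of the required step or more.

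The 3 members with the widest range at 150 mM had a single library there well above the others of that concentration. Gohir.A06G007700.v2.1 had 0.410, 0 and 0.382 FPKM at 50 mM, 1.01, 12.9 and 0.823 at 150 mM, from 31, 369 and 25 reads, and 0.672, 0.131 and 0.352 at 300 mM. Gohir.A11G014000.v2.1 had 0.696, 0.106 and 0.598 FPKM at 50 mM, 0.763, 5.24 and 1.08 at 150 mM, and 0.350, 0.154 and 0.451 at 300 mM. In both genes replicate 2 carried the mean, the other 150 mM libraries were only slightly above the highest library elsewhere, and the gene did not pass the filter on low values. Gohir.A03G096500.v2.1 averaged 0.355 ± 0.243 FPKM at 50 mM, had 2.38, 7.27 and 1.39 at 150 mM, and averaged 0.424 ± 0.407 at 300 mM (SD, n = 3 each).

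The members were spread over all 26 chromosomes of both subgenomes. The A chromosomes held 93 members, of which 91 were tested and made up 0.395% of the tested genes there, and the D chromosomes held 106, all tested and 0.445%. Chromosome D11 held the most, 19 members or 0.765% of 2483 tested genes, followed by A05 with 15 (0.509%) and by A11 and A12 with 12 each. Chromosomes A04 and A06 held 2 members each, and over all chromosomes the 197 tested members were 0.420% of tested genes. These shares are given as a description with no test.

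Some members had a counterpart in the other subgenome that changed alike. For each member a counterpart was sought on the chromosome of the same number in the other subgenome, with the same coding length and an ID number within 3000, and 31 members (15.6%) had exactly 1, as did 18.3% of tested genes on chromosomes. Whether such an ID is the copy of the member in the other subgenome is not established by this match. In 4 cases the counterpart was itself a member, which gave 2 pairs. This count depended on the window: with ID numbers within 10000, 71 members had exactly 1 counterpart, which was itself a member in 10 cases. Within 3000, the other 27 counterparts were not chosen by the rule, and 21 of them passed the filter on low values. Of these 21, 8 rose at 150 against 50 mM (38.1%, where 16.0% of tested genes did), 9 fell at 300 against 150 mM (42.9%, where 4.80% did) and 6 passed both (28.6%, where 1.91% did).

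The median log2 change of the 21 counterparts was 0.89 for the first step and -1.07 for the second, smaller than those of the members, which the rule had set at 2.38-fold or more. The group mean on the log2 scale was highest at 150 mM in 15 of the 21 (71.4%), where it was in 30.3% of all tested genes, and by the mean FPKM in 16. Reads that fit both an A and a D copy could be counted at either, which was not tested. The count of 8 was 4 without replicate 2 at 50 mM, and the count of 9 was 5, 3 and 3 without replicate 1 at 150 mM, replicate 2 at 150 mM and replicate 2 at 300 mM. With ID numbers within 10000, 25 of 50 tested counterparts rose at the first step and 19 fell at the second.

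**Figure D5:**
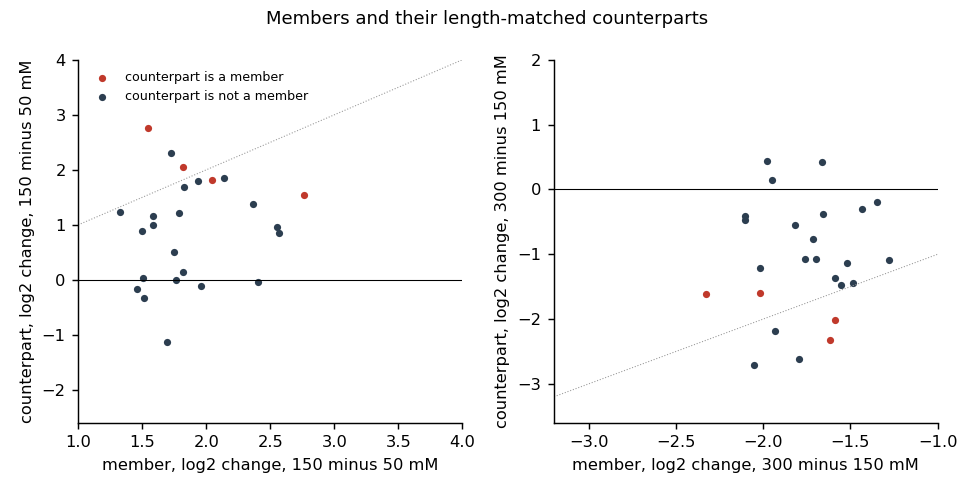
Log2 change of each tested counterpart (y axis) against that of its member (x axis), for 150 minus 50 mM (left) and 300 minus 150 mM (right); red points are the 2 pairs in which both IDs are members, plotted once from each side, and dotted lines mark equal change. Of the 21 counterparts that are not members, 15 had their highest group mean on the log2 scale at 150 mM (71.4%, against 30.3% of all tested genes).

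In the pairs in which both IDs were members the rule set a peak in each, but not the level. Gohir.D05G012800.v2.1 had 0.643, 0.274 and 0.933 FPKM at 50 mM, 7.16, 5.998 and 7.51 at 150 mM, and 1.20, 1.93 and 0.258 at 300 mM, far below its counterpart Gohir.A05G014300.v2.1, which had 233 to 280 FPKM at 150 mM. Both have a coding length of 582 bases. The steps of the D05 gene were 2.77 and -2.33, and those of the A05 gene 1.54 and -1.62. Gohir.A12G096000.v2.1 averaged 1.05 ± 0.236 FPKM at 50 mM, 4.92 ± 0.615 at 150 mM and 1.56 ± 1.40 at 300 mM, and Gohir.D12G098700.v2.1 averaged 2.26 ± 0.766, 10.7 ± 1.96 and 2.52 ± 1.56 (SD, n = 3 each).

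The counterparts named next were chosen after their values were seen. Gohir.D10G056600.v2.1, the counterpart of Gohir.A10G054600.v2.1, had 30.4, 15.8 and 36.8 FPKM at 50 mM, 81.2, 112.6 and 68.2 at 150 mM, and 30.3, 11.3 and 5.68 at 300 mM. It rose by 1.69 on the log2 scale at 150 mM (limma adjusted p = 0.0352) and fell by 2.72 at 300 mM (limma adjusted p = 0.0153), with no overlap at either step. The adjusted p of the first step was 0.0612 to 0.0989 without any 1 of the 150 mM libraries and 0.0678 and 0.122 without replicates 1 and 2 at 50 mM, and that of the second was 0.0523, 0.0588 and 0.0615 without replicate 1 at 150 mM, replicate 2 at 150 mM and replicate 2 at 300 mM. With limma-voom the adjusted p of the steps was 0.0746 and 0.057, and with no filter on low values that of the first was 0.0538. It was no member because its level at 300 mM was below the bound.

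Other counterparts did not share the pattern. Gohir.A11G172500.v2.1, the counterpart of Gohir.D11G174200.v2.1, had 0.985, 1.09 and 1.10 FPKM at 150 mM against 2.83, 2.85 and 3.09 at 50 mM, a log2 change of -1.13 (limma adjusted p = 0.0469). Without any 1 of these 6 libraries its adjusted p was 0.09 to 0.111, and without replicate 3 at 300 mM it was 0.0569. It was 0.056 with limma-voom, 0.0658 with no filter on low values, 0.0593 with a pseudocount of 0.1 and 0.0555 with scaling to recovered reads. The member itself had 77.3, 87.7 and 69.0 FPKM at 150 mM against 21.2, 17.4 and 36.0 at 50 mM. Gohir.A08G211800.v2.1, the counterpart of Gohir.D08G211500.v2.1, had 15.4, 12.9 and 13.4 FPKM at 150 mM against 14.6, 14.6 and 13.5 at 50 mM, and these groups overlapped. At 300 mM it had 20.3, 18.0 and 18.4 FPKM. This was a log2 change of 0.43 from 150 mM (limma adjusted p = 0.0388), where the member changed by -1.66. Its adjusted p under the alternatives is not given here.

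In ID order 8 members formed 4 adjacent pairs, and there was no longer run. Of the 397 IDs next to a member these 8 were 2.02%, where the members were 0.266% of all 74902 Gohir IDs on chromosomes, a description with no test. Of the 389 other IDs next to a member 249 were tested, of which 56 rose at 150 against 50 mM (22.5%, against 16.0% of tested genes) and 18 fell at 300 against 150 mM (7.23%, against 4.80%). Both steps passed in 10 (4.02%, against 1.91%). The count of 18 was 6, 9, 7 and 10 without replicate 1 at 150 mM, replicate 2 at 150 mM, replicate 2 at 300 mM and replicate 3 at 300 mM. The median log2 change of these neighbours was 0.13 for the first step and -0.07 for the second.

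The adjacent pairs are given with the values of both genes. Gohir.D13G128300.v2.1 and Gohir.D13G128350.v2.1 have the same coding length of 330 bases. The second had 14.1, 9.33 and 16.3 FPKM at 50 mM, 61.6, 48.9 and 52.2 at 150 mM, and 14.7, 11.6 and 8.80 at 300 mM, and its replicate 1 at 300 mM was close to the others of its group. Whether reads of one ID were counted at the other was not tested.

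In the pair on D08, Gohir.D08G021400.v2.1 averaged 1.79 ± 0.911 FPKM at 50 mM, 7.94 ± 0.924 at 150 mM and 1.59 ± 0.973 at 300 mM, and Gohir.D08G021500.v2.1 averaged 1.13 ± 0.445, 6.76 ± 2.02 and 2.48 ± 1.40 (SD, n = 3 each). On D11, Gohir.D11G074200.v2.1 had 1.09, 0.863 and 1.66 FPKM at 50 mM, 18.0, 15.3 and 16.3 at 150 mM, and 11.2, 2.39 and 1.22 at 300 mM. Its neighbour Gohir.D11G074300.v2.1 had 4.77, 1.16 and 3.93 FPKM at 50 mM, 5.48, 17.9 and 7.88 at 150 mM, and 1.60, 2.76 and 1.85 at 300 mM. In Gohir.D11G074200.v2.1 the library well above the rest of its group was replicate 1 at 300 mM. In Gohir.D11G074300.v2.1 it was replicate 2 at 150 mM.

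The last pair joined genes of very different level. Gohir.D11G174200.v2.1 averaged 24.9 ± 9.84 FPKM at 50 mM, 78.0 ± 9.34 at 150 mM and 22.7 ± 13.5 at 300 mM (SD, n = 3 each). Gohir.D11G174100.v2.1, of 201 bases, had 2, 0 and 0 reads at 50 mM, 6, 6 and 13 at 150 mM, and 6, 0 and 2 at 300 mM. Replicate 1 held 6 reads at both 300 and 150 mM, or 1.49 FPKM at 300 mM against 1.52 FPKM at 150 mM.

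Outside the Gohir naming, 3 loci met the same criteria on their values. The longest, of 4427 bases, had 1.98, 1.44 and 1.91 FPKM at 50 mM, 7.13, 6.67 and 5.96 at 150 mM, and 4.22, 2.50 and 1.30 at 300 mM. The locus of 953 bases had 3.57, 4.69 and 4.32 FPKM at 150 mM, and that of 391 bases had 2.47, 3.49 and 1.32. In the longest and in that of 953 bases, replicate 1 at 300 mM was again the highest of its group, and in the shortest it was replicate 2.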

How the data were processed

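Ovules of 3 glucose concentrations gave 9 RNA libraries, grouped by the concentration in their titles. The files the authors deposited name no unit, and their values were taken as FPKM from the values themselves, which are not whole, stand in whole-number ratios within a gene and do not sum to a fixed total. Per the submitters' processing notes, HISAT2 and featureCounts 1.5.0-p3 were used. Not given in the sources used here were the build, annotation, strand setting, treatment of shared reads and library-size term. Nothing says whether the libraries of a concentration came from separate cultures, so a p-value here reflects only how far these libraries vary, which may be technical.

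Of these values, all 68279 rows above 0 gave whole reads within a tolerance of 0.001 at a length under 60000 bases. Lengths of Gohir IDs, 95.5% of them divisible by 3 in rows of at least 100 reads, are called coding lengths; in rows of few reads they can be wrong. No libraries were identical, and the chi-square per degree of freedom within groups was 4.45 to 17.1.

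Log2(FPKM + 0.5) was fitted with limma 3.58.1 (trended, robust, R 4.3.3, statmod 1.5.0) over all 9 libraries on the 50988 genes that reached 1 FPKM in 3 or more libraries, two-sided, with Benjamini-Hochberg adjusted p under 0.05 as the threshold. The required step of the rule is 1.25 on this scale. Fold changes on this scale understate the change of low genes. The members, lists and rules were chosen with earlier results of these data known. Genes named are the 8 members with the largest smaller step, the 6 most abundant, the 3 just inside and 3 just outside the rule, members whose counterpart is a member, adjacent members, the 3 highest and 3 lowest at 300 relative to 50 mM, and the 3 with the widest range at 150 mM. Pathway lists chosen by description were not used, as no ID could be paired with a name. Alternatives were pseudocounts of 0.1 and 1, other scalings, filters and steps, limma-voom on recovered reads, a replicate block and leaving out each library.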

Additional observations from a re-analysis of the deposited data

How the results depend on the processing

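The number of members was 363 with a required step of 1.0 and 114 with 1.5, and 149 to 274 leaving out each library in turn. Under pseudocounts of 0.1 and 1 it was 239 and 157, of which 188 and 147 were members as reported, and under median-ratio, upper-quartile and recovered-read scaling it was 187, 180 and 197, of which 187, 171 and 171 were. Scaling to recovered reads, added after seeing the data for the tests, put the median over the tested genes, for 300 against 50 mM, at a log2 change of 0.13, against 0.01 as deposited, so the sign of small differences between these groups depended on it. With that scaling 60.1%, 34.9% and 64.4% of the genes called were higher, for 150 against 50, 300 against 150 and 300 against 50 mM, against 54.6%, 21.5% and 49.6% as deposited. With limma-voom on recovered reads these were 59.2%, 35.6% and 63.9%.

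When 1 library at a time was left out, 10171 to 15880 genes changed in the comparison of 150 with 50 mM, 1526 to 4365 in that of 300 with 150 mM, and 11604 to 16280 in that of 300 with 50 mM. Genes higher at 150 mM in both steps numbered 402 to 1556. Counterparts higher at the first step numbered 4 to 10 and lower at the second 3 to 9, and neighbours 40 to 59 and 6 to 24. With ID numbers within 1000, 4 and 3 of 9 tested counterparts passed at the first and second step, within 10000, 25 and 19 of 50 did, and with chromosomes 2 and 3, and 4 and 5, also searched crosswise, a setting added after seeing the data, 27 and 18 of 52 did. With 3 IDs on each side 137 and 45 of 731 tested neighbours passed. The causes of these differences were not tested beyond the fewer or additional genes and libraries that each setting has by construction. The other alternatives kept each of these counts within 1.5 times its value.

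Replicate numbers are shared by the groups, but same-numbered libraries did not deviate together (correlations of -0.275 to 0.102), and with the replicate block 12962, 2149 and 14354 genes changed for 150 against 50, 300 against 150 and 300 against 50 mM, 667 passed both steps, and 121 members passed the second step. Of 1929 log2 changes of named genes under alternatives, 1916 moved by less than the spread between replicates (1 SD) and 13 by more, and none that had passed its test turned its sign. Depth limits the members of few reads, of which 12 had fewer than 20 reads in a 150 mM library.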
